A study of Mus musculus with 2 samples.

Results

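The genes of the mouse major histocompatibility complex (MHC) were read from heart RNA of male B6CASTF1/J mice aged 14 days. A gene was taken as a member where its symbol began with H2- or was B2m, Tap1, Tap2, Tapbp, Nlrc5 or Ciita, which gave 51 of the 55536 annotated genes, 40 of them protein-coding. B6CASTF1/J mice are the F1 cross between C57BL/6J and CAST/EiJ, so each animal carries an MHC haplotype from either strain, while both deposited quantifications assigned reads to the mm10 sequence of C57BL/6J alone. The data were total RNA sequencing of 2 libraries, called biological replicates by the labels, with 300 ng of RNA going into each. A group of 3 males is mentioned in the labels under one donor label, and whether their RNA was pooled is not said. Both libraries form a single group with no untreated or other control, so no condition could be compared, and the replicate spread may be partly technical.

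MHC class I molecules pair a heavy chain with the light chain beta-2-microglobulin and carry peptides from inside the cell to CD8 T cells. The peptides are pumped into the endoplasmic reticulum by the transporter TAP and loaded with the help of tapasin. Class II molecules are pairs of an alpha and a beta chain that carry peptides from endosomes to CD4 T cells, and are made mainly by B cells, dendritic cells, macrophages and thymic epithelium. Nonclassical class I chains resemble the classical ones but are less variable, and many have narrow expression or specialised ligands. In the heart, class I is carried by many cell types, whereas class II is known chiefly from resident immune cells.

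Replicate 1 held 39334380 expected counts and replicate 2 held 46391250. Levels are given in TPM, a unit scaled for transcript length and sequencing depth, and 1 TPM of a 2 kb transcript stood for 58.2 and 69.7 counts. All 6 cardiomyocyte markers reached 1 TPM in both libraries, with a summed level of 32061 and 30577 TPM. The libraries did not hold the same mix of RNA. The 10 T cell and thymocyte markers summed to 1.62 TPM in replicate 1 and 56.0 TPM in replicate 2, and the 8 thymic epithelium markers to 2.04 and 15.3 TPM. Each value below is therefore given for each library.

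Among the members, 16 of 51 reached 1 TPM in both libraries, 4 reached it in a single library and 31 in neither. Over all annotated genes 22.5% reached 1 TPM in both libraries, and over protein-coding genes 51.8%. The class I light chain B2m, tapasin (Tapbp) and the classical heavy chains H2-K1 and H2-D1 were the highest MHC genes. Class II chains were lower, and most nonclassical symbols were near 0. The gene H2-Ke6 carries an H2 symbol but encodes a dehydrogenase of steroid and fatty acid metabolism, so it is described apart from the antigen-presenting genes.

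**Figure D1:**
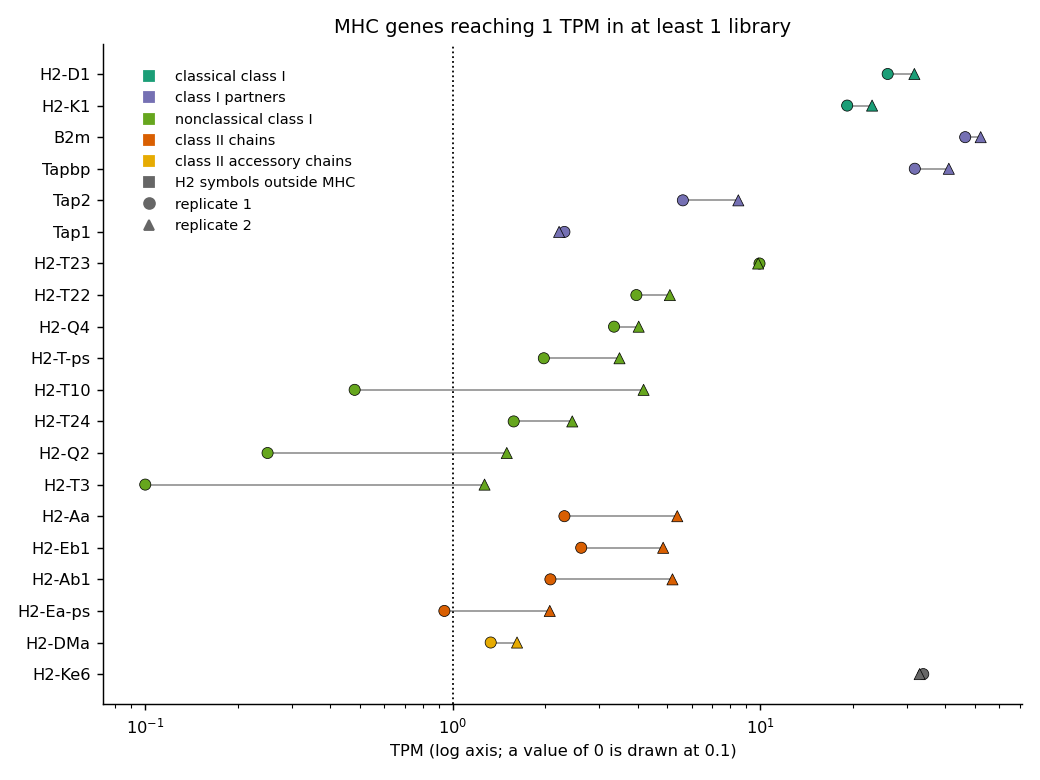
TPM of the 20 members that reached 1 TPM in at least 1 library, on a log axis, with circles for replicate 1, triangles for replicate 2 and colours for the role of the gene; the dotted line is at 1 TPM. H2-K1, H2-D1, B2m and Tapbp near the top lie above the class II chains, and H2-T10, H2-Q2 and H2-T3 span the dotted line with replicate 2 higher.

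The classical heavy chains H2-K1 and H2-D1 are close copies, and the agreement of their values depends on stretches of sequence that tell them apart. The exons that encode the peptide-binding groove, exons 2 and 3, differ at 24 of 270 and 33 of 276 bases between the genes in the annotated mm10 transcripts. Exon 4, which encodes the domain next to the membrane, differs at 11 of 276 bases and holds the longest identical coding run, 91 bases. A stretch of 120 bases from exon 2 and another from exon 4 are shown. The exon 2 stretch was picked for the most differing bases and the exon 4 stretch for the fewest. These stretches are thus extremes and overstate the contrast between the whole exons. They are written 5′ to 3′ on the strand of the gene, with the bases that differ between both genes in capitals. There are 12 such bases in the exon 2 stretch and 1 in the exon 4 stretch. The exon 2 stretch lies at chr17:33999884-34000003 (mm10, minus strand) in H2-K1 and at chr17:35263379-35263498 (plus strand) in H2-D1. The exon 4 stretch lies at chr17:33997396-33997515 in H2-K1 and at chr17:35265829-35265948 in H2-D1.
H2-K1 exon 2: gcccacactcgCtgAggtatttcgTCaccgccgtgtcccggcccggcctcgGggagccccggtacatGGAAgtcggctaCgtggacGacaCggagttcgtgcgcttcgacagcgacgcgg
H2-D1 exon 2: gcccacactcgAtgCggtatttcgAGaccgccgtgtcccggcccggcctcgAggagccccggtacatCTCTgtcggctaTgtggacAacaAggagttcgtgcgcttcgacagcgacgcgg
H2-K1 exon 4: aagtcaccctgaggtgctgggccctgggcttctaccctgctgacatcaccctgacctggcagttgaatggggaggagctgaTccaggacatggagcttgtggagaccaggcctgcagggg
H2-D1 exon 4: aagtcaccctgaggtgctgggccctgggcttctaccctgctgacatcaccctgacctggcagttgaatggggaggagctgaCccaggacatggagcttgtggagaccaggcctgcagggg

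H2-K1 (chromosome 17, 33996017 to 34000347, mm10), which encodes the K heavy chain, stood at 19.2 TPM in replicate 1 and 23.15 TPM in replicate 2, backed by 564 and 886 expected counts. H2-D1 (chromosome 17, 35262730 to 35267499), the D heavy chain, stood at 26.0 and 31.8 TPM, backed by 1430 and 2057 counts. H2-D1 was the higher of the pair in both libraries, with a log2 ratio of TPM over H2-K1 of 0.45 ± 0.01 (SD, n = 2), or 1.36-fold. Together they summed to 50.1 ± 6.86 TPM (SD, n = 2) and took 65.4% and 60.4% of the TPM of all 32 class I heavy chain symbols.

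The size of the H2-D1 excess depended on which transcripts were counted. In the RSEM-style tables the transcript of H2-K1 with the most TPM was H2-K1-215, a retained-intron model of 457 bases at 7.24 and 8.11 TPM. In the kallisto-style tables that model had 1.15 and 0 TPM, and the protein-coding H2-K1-205 led with 8.75 and 11.7 TPM. Retained-intron models took 45.8% and 39.3% of H2-K1 by the RSEM-style tables and 15.4% and 10.4% by the kallisto-style tables. For H2-D1 they took 6.30% and 12.2% against 5.09% and 3.94%. With protein-coding transcripts alone the log2 ratio of H2-D1 over H2-K1 was 1.13, and with kallisto-style values over all transcripts it was 0.24. H2-D1 was the higher gene under each of these choices.

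Beta-2-microglobulin, encoded by B2m (chromosome 2, 122147686 to 122153083), had the highest level of any member, 46.5 and 52.2 TPM. The sum of H2-K1 and H2-D1 was close to that of their light chain. Its log2 ratio to B2m was -0.040 in replicate 1 and 0.073 in replicate 2, a mean of 0.016 ± 0.080 (SD, n = 2). Counting protein-coding transcripts alone, it was -0.38 ± 0.074 (SD, n = 2). With the nonclassical chains added, the heavy chain sum over all transcripts was 1.61-fold above B2m. These are RNA levels, and the ratio is not one of chains in the assembled molecule.

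The peptide loading genes lay at different levels. Tapbp (chromosome 17, 33915899 to 33929292), which encodes tapasin, stood at 31.9 and 41.1 TPM. Tap2 (34203527 to 34216321) and Tap1 (34187553 to 34197225), the subunits of the peptide transporter, stood at 5.61 and 8.50 TPM and at 2.31 and 2.22 TPM. Tap2 exceeded Tap1, its partner in the transporter, by 1.57 ± 0.46 log2 units (SD, n = 2). Most of the Tap2 value did not come from protein-coding models. The retained-intron transcript Tap2-202 held 4.20 and 5.90 TPM by the RSEM-style tables and 3.74 and 4.84 TPM by the kallisto-style tables, and the protein-coding Tap2-201 held 1.42 and 1.31 TPM against 2.80 and 3.33 TPM. Over protein-coding transcripts alone Tap2 stood at 1.42 and 2.60 TPM and Tap1 at 1.89 and 1.88 TPM by the RSEM-style tables, so that Tap2 was the lower in replicate 1 and the mean log2 ratio was 0.029 ± 0.59 (SD, n = 2). By the kallisto-style tables the same ratio was 0.90 ± 0.33. The tables also divided Tapbp differently. Tapbp-208, a model of 367 bases, had 6.87 and 15.3 TPM by the RSEM-style tables and 0 TPM in both libraries by the kallisto-style tables, in which Tapbp-201 led with 20.8 and 22.8 TPM.

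The other genes of the class I route were read from a list of 10, none of them members. The chaperones Calr (98.1 and 135.9 TPM) and Canx (88.3 and 100.8 TPM) and the thiol oxidoreductase Pdia3 (46.1 and 61.4 TPM) fold and load class I chains but also serve most secreted proteins. Erap1, the aminopeptidase that trims peptides in the endoplasmic reticulum, stood at 15.6 and 15.2 TPM, and the tapasin-related Tapbpl at 1.87 and 1.62 TPM. The proteasome activator subunits Psme1 (100.5 and 97.4 TPM) and Psme2 (40.7 and 54.3 TPM) were higher than the immunoproteasome subunits, which replace the standard catalytic subunits in immune cells and under interferon. Of those, Psmb10 stood at 25.2 and 27.2 TPM, Psmb8 at 3.37 and 5.33 TPM and Psmb9 at 0.91 and 2.66 TPM. In all, 9 of the 10 reached 1 TPM in both libraries, and Psmb9 was below it in replicate 1.

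The nonclassical class I set held 30 symbols, 22 of them protein-coding. Of these, 5 reached 1 TPM in both libraries, 3 in a single library and 22 in neither, and 9 had 0 counts in both. They summed to 23.98 TPM in replicate 1 and 36.0 TPM in replicate 2. H2-T23 (chromosome 17, 36029773 to 36032855), which encodes Qa-1, the ligand of the natural killer receptor CD94-NKG2, was the highest at 9.96 and 9.86 TPM. H2-T22 (36037128 to 36042747), a ligand of gamma delta T cells, stood at 3.96 and 5.09 TPM, and H2-Q4 (35379617 to 35385290) at 3.35 and 4.03 TPM. The pseudogene H2-T-ps stood at 1.98 and 3.49 TPM and H2-T24 at 1.58 and 2.45 TPM. H2-T23 alone took 14.4% and 10.8% of the class I heavy chain TPM, and H2-T22 took 5.72% and 5.60%.

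Another 3 symbols crossed 1 TPM in replicate 2 alone. H2-T10 (36115876 to 36121465), the close relative of H2-T22 and also a ligand of gamma delta T cells, was at 0.48 TPM in replicate 1 and 4.18 TPM in replicate 2. H2-Q2 (35342242 to 35346762) was at 0.25 and 1.50 TPM. H2-T3 (36185572 to 36190287), which encodes the thymus leukemia antigen known from thymocytes and gut epithelium, had 0 counts in replicate 1 and 66 counts, or 1.27 TPM, in replicate 2. Protein-coding models of H2-T3 held 0.13 TPM of that, and 0.71 of 1.98 TPM by the kallisto-style tables. Of the members with enough counts to be tested, these 3 symbols lay furthest apart between the libraries.

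The remaining nonclassical chains were low. H2-M3, which presents peptides that begin with formylmethionine, stood at 0.85 and 0.96 TPM, and the Qa-2 gene H2-Q7 at 0.42 and 0.76 TPM. H2-Q10, which encodes a chain secreted by the liver, had 8.63 and 9.42 expected counts. In the H2-M10 group, which is known from pheromone-sensing neurons of the vomeronasal organ, H2-M10.2, H2-M10.3, H2-M10.4, H2-M10.5, H2-M10.6 and the pseudogene H2-M10.5-ps1 had 0 counts in both libraries, and H2-M10.1 had 0 and 1. H2-M1, H2-M11 and H2-M6-ps also had 0 counts in both libraries, as had the class II pseudogenes H2-Pa and H2-Pb. A count of 0 allows up to 3 counts in a library, by counting error alone.

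How far the reads of these genes can be assigned was described by the share of 31-base words of their annotated transcripts that also occur, on the same strand, in transcripts of another gene. The share was at least 20% in 21 of 51 members, among them both classical chains and 16 of the 30 nonclassical symbols, and 0% in 8. H2-D1 shared 26.7% of its words and H2-K1 22.8%. H2-T22 and H2-T10 shared 51.0% and 50.7%, nearly all with each other, and H2-T-ps shared 48.4%, mostly with H2-T23. In the H2-Q group, H2-Q5 shared 57.8%, H2-Q6 50.3%, H2-Q7 39.1% and H2-Q4 38.4%. The class II chains H2-Aa (0.833%), H2-Ab1 (0.267%) and H2-Eb1 (1.06%) and the light chain B2m (0%) shared almost none.

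The overlap was uneven along the class I genes. Exon 4, shown above for H2-K1 and H2-D1, shared 59.1% of its words in H2-K1, 67.8% in H2-D1, 79.3% in H2-Q4 and 74.3% in H2-T23, whereas exon 3 shared 27.5%, 34.8%, 34.8% and 30.8%. H2-T3, whose exons 1 to 3 shared no word, was at 4.12% over the whole gene. For words of 100 bases the shares were smaller, 0.957% for H2-K1, 3.59% for H2-D1, 8.86% for H2-T22 and 7.06% for H2-T10. Values of genes with high shares, above all H2-T10, H2-T22 and the H2-Q group, are thus uncertain in how reads were split between copies. The added effect of CAST/EiJ alleles that differ from the mm10 sequence was not tested.

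**Figure D2:**
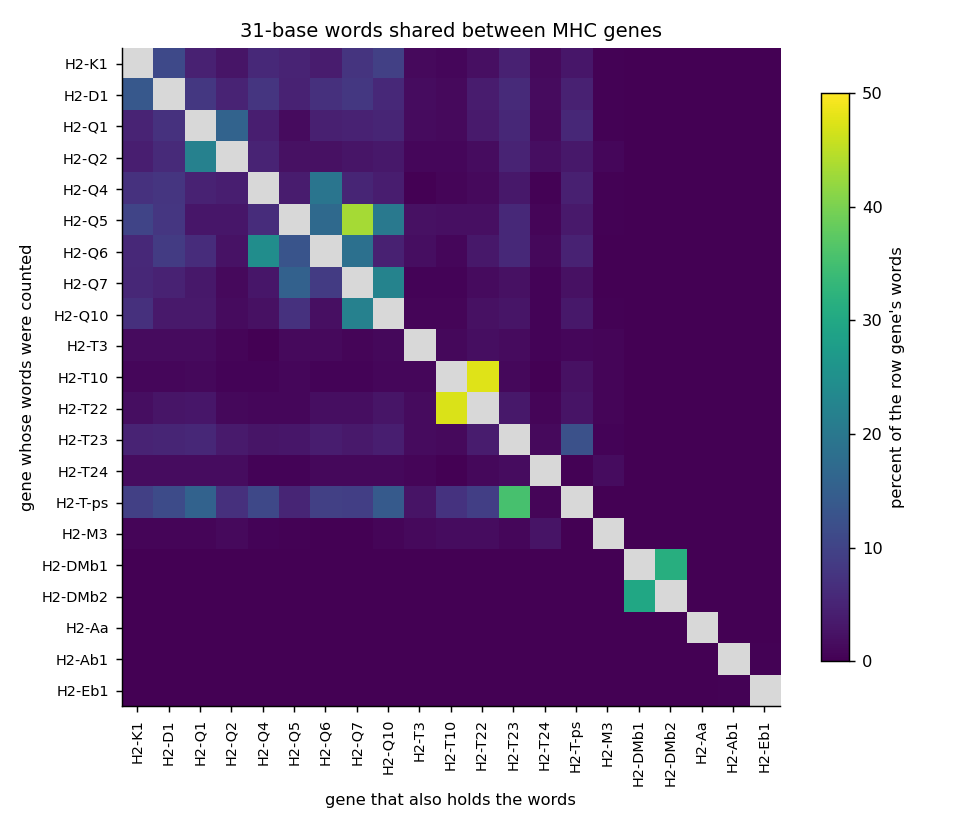
Percent of the 31-base words of each gene (rows) that also occur in another gene (columns), for 21 members, with colour from 0 to 50% and the diagonal in grey. The brightest pairs are H2-T10 with H2-T22, H2-Q5 with H2-Q7 and H2-T-ps with H2-T23, and the class II chains in the last rows are dark against every other gene.

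The levels of the quantifications were then set side by side. The kallisto-style TPM was compared with the RSEM-style TPM as a log2 ratio with 0.1 added to both, centred on all genes, for the 22 members with a mean of at least 1 TPM in either table. None of the 22 was past 2-fold in both libraries, in either direction. Over the 13827 genes compared, 3.49% were higher and 3.94% lower by at least 2-fold in the kallisto-style tables. For 16 of the 22 members the ratio was within 0.5 log2 units in both libraries, where 79% of the genes compared were. H2-D1 was at -0.12 and -0.15, H2-K1 at 0.059 and 0.083, H2-T22 at -0.032 and -0.053 and H2-T10 at 0.094 and 0.061.

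H2-Q7, H2-Ab1 and H2-DMb1 passed 2-fold in replicate 1 and not in replicate 2. H2-Q7 was at 0.42 and 0.76 TPM by the RSEM-style tables and at 1.52 and 1.91 TPM by the kallisto-style tables, a centred log2 ratio of 1.39 and 0.95, so that it lay just inside 2-fold in replicate 2. H2-Ab1 was at 2.08 and 5.19 TPM against 5.42 and 8.66 TPM, a log2 ratio of 1.09 and 0.45, although it shared few words with any gene. Protein-coding models took 100% and 79.0% of its TPM by the RSEM-style tables but 34.4% and 64.6% by the kallisto-style tables. H2-DMb1, which shared 31.4% of its words, all with H2-DMb2, had a log2 ratio of 1.11 and 0.71. Tapbp was below the centre in both libraries, at -0.40 and -0.57.

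**Figure D3:**
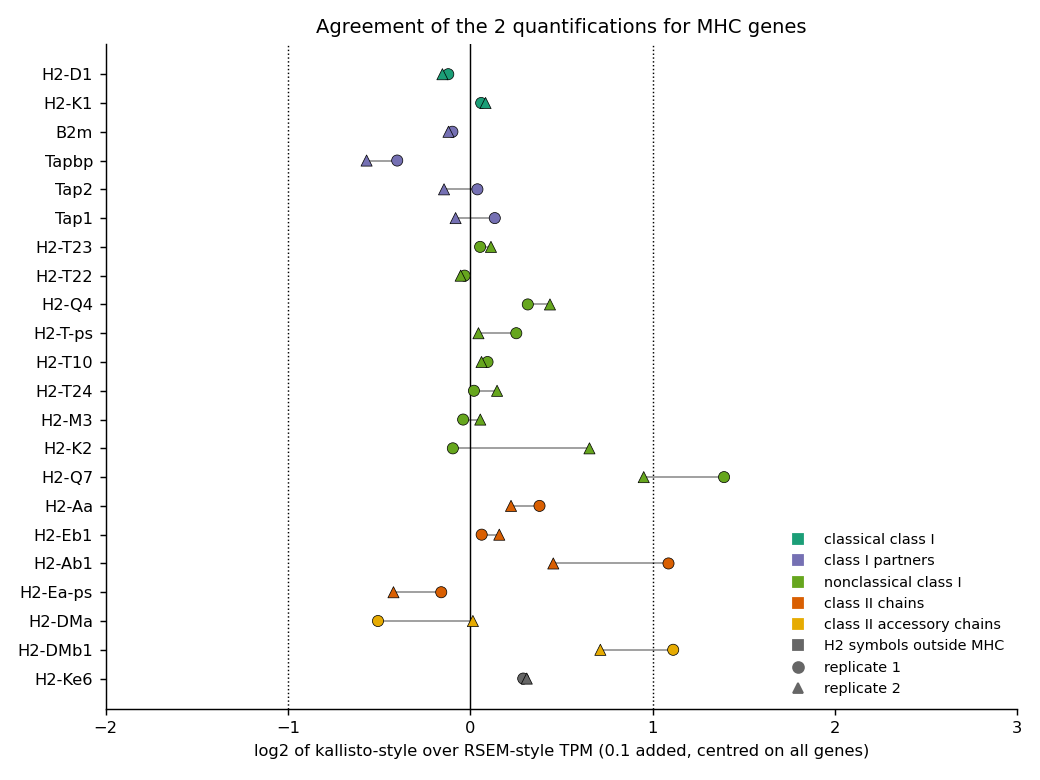
Centred log2 ratio of kallisto-style over RSEM-style TPM for the 22 members compared, with circles for replicate 1 and triangles for replicate 2; dotted lines mark 2-fold. H2-Q7, H2-Ab1 and H2-DMb1 cross the right line in replicate 1 only, and H2-D1, H2-K1, H2-T22 and H2-T10 lie near 0 in both libraries.

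The class II chains were present at low levels. H2-Aa (chromosome 17, 34282744 to 34287823), the alpha chain of the A molecule, stood at 2.31 TPM in replicate 1 and 5.38 TPM in replicate 2. H2-Ab1 (34257689 to 34269419), its beta chain, stood at 2.08 and 5.19 TPM, and H2-Eb1 (34305867 to 34316674), the beta chain of the E molecule, at 2.62 and 4.84 TPM. All were higher in replicate 2. The log2 ratio of H2-Aa over H2-Ab1 was 0.098 ± 0.066 and that of H2-Eb1 over H2-Ab1 was 0.11 ± 0.30 (SD, n = 2). By the kallisto-style tables both ratios turned negative, to -0.37 ± 0.27 and -0.55 ± 0.22 (SD, n = 2). The gene level of H2-Eb1 lay mostly in models that are not protein-coding. Nonsense-mediated decay models took 62.2% and 67.6% of its TPM by the RSEM-style tables and 59.9% and 69.3% by the kallisto-style tables, and protein-coding models 12.6% and 19.0% against 22.6% and 19.2%. For H2-Aa protein-coding models took 98.7% and 99.4% by the RSEM-style tables. On protein-coding transcripts alone, a setting added after the data were seen, H2-Eb1 stood at 0.33 and 0.92 TPM and H2-Ab1 at 2.08 and 4.10 TPM, a log2 ratio of -2.19 ± 0.21 (SD, n = 2).

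The partner of H2-Eb1, the E alpha chain H2-Ea-ps (34341959 to 34344645), is annotated as a polymorphic pseudogene, since C57BL/6 mice carry a deletion at its promoter and make no E molecule. It was nevertheless listed at 0.94 and 2.07 TPM, with 26 and 61 counts, and shared no word with another gene. Its log2 ratio over H2-Eb1 was -1.29 ± 0.14 (SD, n = 2), or 2.44-fold lower, over all transcripts. Protein-coding models took 90.4% and 61.8% of its TPM by the RSEM-style tables and 92.5% and 100% by the kallisto-style tables. Among protein-coding transcripts alone the order of the pair turned. H2-Ea-ps then stood at 0.85 and 1.28 TPM against 0.33 and 0.92 TPM for H2-Eb1, a log2 ratio of 0.79 ± 0.50 (SD, n = 2), and by the kallisto-style tables the ratio was 0.41 ± 0.16. Which parental haplotype the reads came from was not tested. The other beta chain, H2-Eb2, had 0 and 5 counts.

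The class II sum of 7.95 TPM in replicate 1 and 17.5 TPM in replicate 2 lay below the classical class I sum by 2.51 and 1.65 log2 units, a mean of 2.08 ± 0.61, or 4.22-fold. The class II sum lay 2.20-fold apart between the libraries, against 1.21-fold for the classical chains. In bulk RNA, fewer cells of a type and less RNA per cell cannot be told apart.

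The accessory chains DM and DO, which edit the peptides in class II molecules, were lower still. H2-DMa stood at 1.33 and 1.62 TPM and was the only one of 5 to reach 1 TPM in both libraries. The beta chains H2-DMb1 (0.21 and 0.74 TPM) and H2-DMb2 (0.33 and 0.66 TPM) share sequence, and their sum was 0.54 and 1.40 TPM. The DO chains H2-Ob (0.30 and 0.36 TPM) and H2-Oa (0.07 and 0.22 TPM) are known mainly from B cells and thymic epithelium. The accessory chains summed to 2.24 and 3.60 TPM.

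The other genes of the class II route were read from a list of 11. Cd74, the invariant chain that holds the groove of new class II molecules, stood at 7.44 and 15.4 TPM, above each class II chain. The lysosomal enzymes that cut it and prepare peptides were Lgmn (32.3 and 32.0 TPM), Ifi30 (6.34 and 6.66 TPM) and Ctss (3.49 and 5.19 TPM). The subunits of the RFX complex, Rfx5 (2.61 and 3.46 TPM), Rfxank (7.44 and 8.26 TPM) and Rfxap (9.24 and 8.95 TPM), and of NF-Y, Nfya (9.85 and 10.8 TPM), Nfyb (5.24 and 6.25 TPM) and Nfyc (27.7 and 27.2 TPM), were detected, as was Creb1 (11.8 and 15.3 TPM). All 11 reached 1 TPM in both libraries.

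The transactivators that are recruited by these factors were below 1 TPM. Nlrc5 (chromosome 8, 94434356 to 94527272), which drives class I genes, stood at 0.12 and 0.59 TPM with 17 and 54 counts. Ciita (chromosome 16, 10480059 to 10528418), which drives class II genes, stood at 0.09 and 0.27 TPM with 14 and 43 counts. Of 18 genes of interferon signalling, a pathway that raises many MHC genes, 14 reached 1 TPM in both libraries. The receptor chain Ifngr2 (55.0 and 58.3 TPM) and the kinase Jak1 (30.9 and 32.6 TPM) were the highest.

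RFX, CREB and NF-Y are known to bind X and Y boxes before the start of MHC genes, so short motif cores were searched in the RefSeq promoters (build GRCm38.p6, 250 bases before to 50 after a start) of the 35 members found by symbol. The cores, searched on both strands, were ATTGG for the Y box, TGACG for the X2 box and, for a spaced interferon response element, TTTC repeated after any 2 bases. A window of 120 bases is shown for H2-K1, H2-Aa, H2-Eb1 and B2m, a class I heavy chain, both kinds of class II chain and the class I light chain, 5′ to 3′ on the strand of the gene with matches in capitals. The windows are chr17:34000353-34000472 (minus strand), chr17:34287845-34287964 (minus strand), chr17:34305732-34305851 (plus strand) and chr2:122147534-122147653 (plus strand).
H2-K1 promoter: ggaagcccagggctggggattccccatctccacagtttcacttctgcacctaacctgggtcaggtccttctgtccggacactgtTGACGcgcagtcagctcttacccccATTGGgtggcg
H2-Aa promoter: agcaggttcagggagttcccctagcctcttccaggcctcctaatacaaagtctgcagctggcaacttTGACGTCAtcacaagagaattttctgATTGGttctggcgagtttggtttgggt
H2-Eb1 promoter: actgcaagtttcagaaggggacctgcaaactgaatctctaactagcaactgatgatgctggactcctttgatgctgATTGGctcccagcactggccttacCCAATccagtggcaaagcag
B2m promoter: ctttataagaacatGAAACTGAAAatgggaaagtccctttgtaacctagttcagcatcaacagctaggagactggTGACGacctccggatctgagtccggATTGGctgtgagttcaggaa

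The Y core was in 32 of the 35 members' promoters and in 37.4% of all 32851 promoters of the table. The X2 core was in 14 of 35 against 20.8%, and the interferon element in 3 of 35, among them B2m, against 3.44%. A Y core within 40 bases of an X2 core was in 11 of 35 against 3.47%. Both classical chains, H2-Aa and B2m had such a pair, and H2-Eb1 had 2 Y cores and no X2 core in the letters searched. In H2-Aa the X2 match reads the same on both strands, which counts it 2 times. Members share ancestry, so their promoters are not independent, and a match is a description of letters and not of binding.

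The libraries were set against each other with an exact binomial test (2-sided) of their expected counts, library sizes being scaled by TMM, over the 16611 genes with at least 20 counts in both libraries together, with Benjamini-Hochberg adjustment. This test compares these libraries and covers counting error only. Of the 51 members 30 were tested, and some had fewer than 20 counts in replicate 1 and passed the minimum through replicate 2. Most members called higher below were among these, namely H2-T3, H2-Q2, H2-Q1, H2-Q6, H2-DMb1, Nlrc5 and Ciita. For them the filter drew on the library in which they were higher. At an adjusted p of at most 0.05 and at least 2-fold, 10 members were higher in replicate 2 and 0 were lower, where 2.49% of all genes tested were higher and 0.746% lower. At any ratio 18 were higher and 0 lower, against 10.9% and 11.1% of all genes tested. The ratio was above 1 for 29 of the 30, against 50.9% of all genes tested, and the exception was H2-Ke6. The median log2 ratio was 0.68 over the 30 members and 0.0040 over all genes tested. The counts of 18 and 29 and this median include members that passed the minimum through replicate 2. H2-DMb2 and H2-Ob, which were not called, were also among these. The filter thus tilts these summaries of the members towards replicate 2.

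The class I core lay close together. H2-K1 had a scaled ratio of replicate 2 over replicate 1 of 1.29 (95% interval 1.16 to 1.44, exact binomial, adjusted p = 2.03e-05) and H2-D1 of 1.19 (1.11 to 1.27, exact binomial, adjusted p = 1.11e-05). Tap2 was at 1.26 (1.12 to 1.42) and B2m at 1.11 (1.02 to 1.20). Tapbp (1.04, 0.977 to 1.10), Tap1 (1.06, 0.865 to 1.30) and H2-T23 (1.00, 0.879 to 1.14) did not pass the test. No classical chain or class I partner passed 2-fold.

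The nonclassical chains supplied 5 of the 10 members past 2-fold, out of 13 tested. H2-T10, with 24.5 and 276 expected counts, had a ratio of 9.47 (6.24 to 15.0, exact binomial, adjusted p = 1.26e-43), and its deposited credibility intervals of 0.286 to 0.713 TPM and 3.54 to 4.72 TPM did not overlap. H2-T22, which shares about as much sequence, had a ratio of 1.35 (1.13 to 1.61), so that H2-T22 over H2-T10 was 2.81 log2 units in replicate 1 and 0.28 in replicate 2. The kallisto-style tables gave 2.68 and 0.16 for the same pair. Summed over the pair, which sets aside how reads were split between them, the level was 4.44 TPM in replicate 1 and 9.27 TPM in replicate 2. This sum came from 230 and 612 counts, a smaller difference than that of H2-T10 alone. H2-T3, with 0 and 66 counts, was at least 18.1-fold higher in replicate 2 when 3 counts stand for the library at 0 (exact binomial, adjusted p = 2.97e-16). The lower end of its 95% interval, from the counts as they are, was 14.3-fold. H2-Q2 had a ratio of 5.68 (2.80 to 13.0), H2-Q6 of 3.95 (1.48 to 13.3) and H2-Q1 of 3.11 (1.46 to 7.38). H2-Q6 and H2-Q1 had fewer than 40 counts in either library. All of these share sequence within the H2-Q group. The share of words also found in another gene was 32.2% for H2-Q2, 50.3% for H2-Q6 and 23.7% for H2-Q1.

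Of the class II chains, 4 were tested and 2 passed 2-fold. H2-Aa, with 75 and 199 counts, had a ratio of 2.19 (1.67 to 2.89, exact binomial, adjusted p = 3.59e-08). H2-Ab1, with 68 and 177 counts, had a ratio of 2.14 (1.61 to 2.88, exact binomial, adjusted p = 4.31e-07). H2-Eb1 (1.95, 1.49 to 2.57) and H2-Ea-ps (1.93, 1.20 to 3.19) passed the test at a ratio just under 2, so the 4 chains lay at similar ratios on either side of the limit. H2-DMb1 (2.78, 1.23 to 7.08) was called with 8.45 and 26.8 counts, and H2-DMa (1.50, 0.973 to 2.35) was not. Nlrc5 (2.62, 1.49 to 4.82) and Ciita (2.53, 1.36 to 5.01) were both called. Among the members called, the deposited credibility intervals of Nlrc5, Ciita, H2-DMb1, H2-Q1 and H2-Q6 overlapped between the libraries. Those of H2-T10, H2-Q2, H2-Aa and H2-Ab1 did not. Those of H2-T3 nearly touched, with an upper bound of 1.21 TPM in replicate 1 and a lower bound of 1.22 TPM in replicate 2. The share over all genes was not computed, so the overlaps are not a result about the members as a set. Cd74 was called as well, at 2.01 (1.74 to 2.33), and it was the only one of the 11 other class II route genes past 2-fold. In the class I route list Psmb9 was the only one of 10, at 2.06 (1.35 to 3.21), and in the interferon list Ifit1 was the only one of 18, at 4.53 (1.87 to 13.2).

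**Figure D4:**
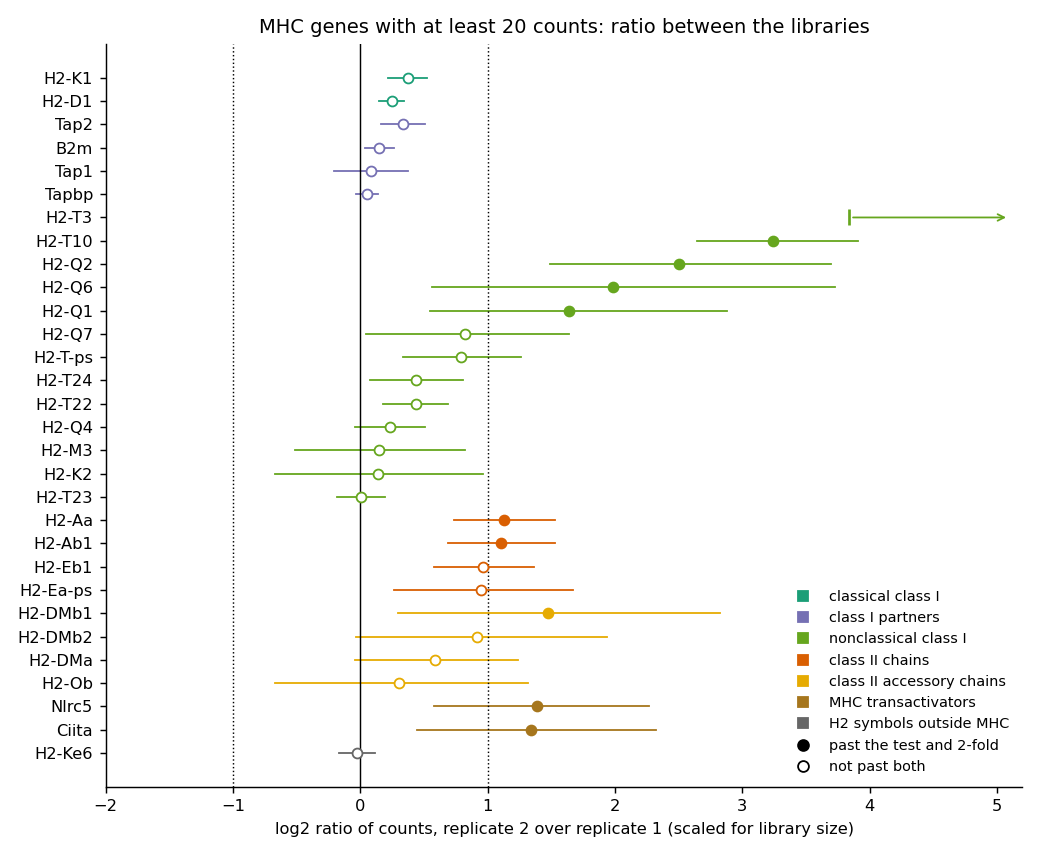
Log2 ratio of counts of replicate 2 over replicate 1 for the 30 members tested, with exact 95% intervals, filled points for those past the test and 2-fold, dotted lines at 2-fold and an arrow for H2-T3, which had 0 counts in replicate 1. The classical chains and class I partners sit near 0, the 4 class II chains near 1, and H2-T10, H2-Q2 and H2-T3 furthest to the right.

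The calls leaned on the assumption that only counting error separates the libraries. The edgeR exact test, given a coefficient of variation of 0.1, left 5 of the 10, H2-Aa, H2-Ab1, H2-Q2, H2-T10 and H2-T3. Given 0.2 it left H2-Q2, H2-T10 and H2-T3. With kallisto-style counts 7 members were called, of which 6 were among the 10, and the ratio of H2-Aa was inside 2-fold.

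Cell type markers were read beside these differences. All 9 tested of 10 T cell and thymocyte markers were higher in replicate 2 by at least 2-fold. Rag1, the recombinase of developing lymphocytes, was at 0.02 and 12.0 TPM and the co-receptor Cd8a at 0.13 and 8.71 TPM, while Rag2 and Ptcra had 0 counts in replicate 1. Of 8 thymic epithelium markers 5 of 6 tested were higher. Prss16, a thymic protease, was at 0.02 and 4.76 TPM and the chemokine Ccl25 at 1.80 and 6.08 TPM, and Foxn1, Psmb11, Aire, Tbata and Krt5 had 0 counts in replicate 1. The part of these cells in the values of H2-T10, H2-T3, H2-Q2, the class II chains and the transactivators was not tested.

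Markers of the other cells that carry class II differed less. The 9 macrophage markers summed to 78.6 and 104.55 TPM, and 0 of 9 were past 2-fold. The 2 highest were Lyz2 at 24.2 and 40.7 TPM and C1qb at 14.3 and 18.3 TPM. Both passed the test as higher in replicate 2, at ratios of 1.66 and 1.27. The list did not move as a whole. The ratio was above 1 for 6 of the 9 and below 1 for the rest. The median level of the list was 9.19 TPM in replicate 1 and 8.47 TPM in replicate 2. The 7 B cell markers summed to 2.19 and 2.59 TPM with every one below 1 TPM in both libraries, and 0 of 7 were past 2-fold. The 8 dendritic cell markers summed to 6.50 and 6.51 TPM, of which Zbtb46, a factor also present in endothelium, made 5.87 and 5.66 TPM. Of the 3 tested, 0 passed both the test and 2-fold. The highest ratio among those was 2.35 (0.956 to 6.59), on 7 and 19.6 counts. The 5 endothelial markers summed to 288.6 and 272.8 TPM, led by Cdh5 and Pecam1. No marker list had a gene at 0 in replicate 2. The part of macrophages, B cells and dendritic cells in the class II values was not tested.

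**Figure D5:**
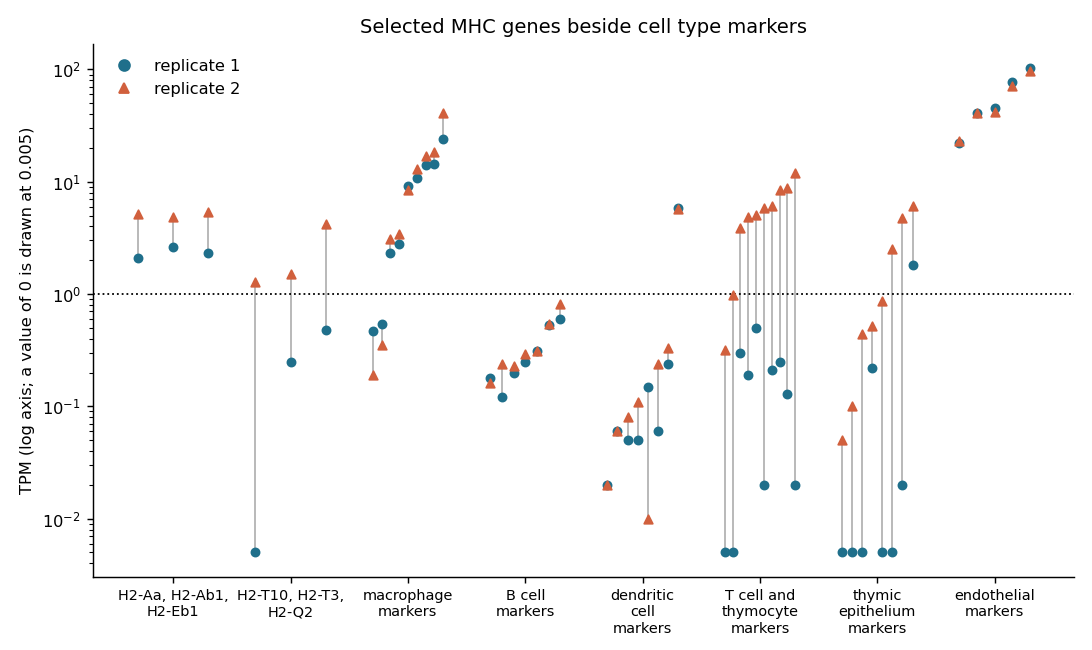
TPM on a log axis of 6 MHC genes and of the markers of 6 cell types, a pair of points per gene, with circles for replicate 1, triangles for replicate 2 and values of 0 drawn at 0.005. The class II chains and H2-T10, H2-T3 and H2-Q2 are higher in replicate 2, as are the T cell, thymocyte and thymic epithelium markers, while the B cell and endothelial markers lie close together.

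Ordered by mean RSEM-style TPM over all transcripts, few neighbours could be separated beyond the joint spread of both genes' SDs. B2m lay above Tapbp by 12.9 TPM with a joint spread of 7.69, whereas Tapbp and H2-Ke6 differed by 3.00 TPM with a joint spread of 6.57. H2-D1, H2-K1, H2-T23, Tap2 and H2-T22 followed, each above the next by more than the joint spread and in the same order in both libraries. Over protein-coding transcripts alone the last pair turned. Tap2 then stood at 1.42 and 2.60 TPM and H2-T22 at 3.73 and 4.45 TPM by the RSEM-style tables. By the kallisto-style tables the same values were 3.15 and 4.46 TPM against 4.28 and 5.25 TPM. From H2-T22 down, at a mean of 4.53 TPM and below, no neighbouring pair of the 16 members differed by more than its joint spread.

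H2-Ke6 (chromosome 17, 34026033 to 34028060) was at 33.96 and 33.1 TPM, the third highest member by mean of the RSEM-style tables, with a ratio between the libraries of 0.982 (0.889 to 1.09). It shared 76.1% of its words with Gm20427, a gene model that overlaps it on the same strand, so its level cannot be assigned to H2-Ke6 alone. By the kallisto-style tables it was at 49.5 TPM in both libraries, a centred log2 ratio of 0.29 and 0.31.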

How the data were processed

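Total RNA of 2 libraries was analysed as 1 group. The authors deposited RSEM-style gene and transcript tables (expected counts, TPM, posterior mean TPM, the percent of a gene's TPM in each transcript, and bounds of a credibility interval, whose level is not stated and which were handled as a signal on the TPM scale) and kallisto-style transcript tables (estimated counts and TPM). Tool names come from the column names, and reads were assigned to mm10 with annotation M21, per the authors' readme; no source used here gives versions. Main values were deposited RSEM-style gene TPM and expected counts, rounded for tests. Kallisto-style values were summed per gene, and 86 genes without a row were set to 0. Spike-ins (0.517% and 0.531% of counts) and 26249 unannotated identifiers (0.87 and 2.84 counts) stayed out of tests.

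Library sizes were scaled by TMM (edgeR 4.0.16). With 2 libraries of 1 group no test between groups exists. The binomial test was tested before use on data simulated with counting error alone, with changes set only in genes of at least 100 counts. That simulation cannot show how the test does on lower counts or where libraries differ by more than counting error. Table ratios were centred on medians of 0.25 and 0.27 log2 units. Members and lists were chosen with earlier results of these data known; every member may be named, the route lists whole, of other lists the 2 highest genes and those at 0, and transcripts for members at 5 TPM or more whose leading transcript differs between tables or is not protein-coding. The list of class II pseudogenes was added after the symbols were read. Alternatives were other tables, estimates, transcripts, thresholds, pseudocounts, scalings, filters, tests and leaving out each library. Python 3.11.15, SciPy 1.17.1 and R 4.3.3 were used.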

Additional observations from a re-analysis of the deposited data

How the results depend on the processing

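No paired analysis was possible because both libraries belong to 1 group. With kallisto-style TPM the classical class I sum was 58.3 TPM, the nonclassical sum 41.2 TPM and the accessory class II sum 3.88 TPM, against 50.1, 29.99 and 2.92 TPM; with protein-coding transcripts only the classical sum was 38.1 TPM, and with posterior mean TPM the accessory sum was 3.93 TPM. The log2 ratio of H2-D1 over H2-K1, 0.45 as reported, was 0.24 with kallisto-style TPM, 0.37 with posterior mean TPM, 1.13 with protein-coding transcripts and 0.43 with a pseudocount of 1. The count of 10 members higher in replicate 2 was 3 with at least 100 counts required (16 members tested), and 5 and 3 by the edgeR exact test given a coefficient of variation of 0.1 and 0.2. The count of 0 members past 2-fold between the tables was 1 without centring, 1 with a pseudocount of 0.01, 2 with no filter on low values, 1 with counts, and 1 to 2 when either replicate was left out. H2-Q7 was that member without centring, with the pseudocount and with counts; H2-Bl and H2-Q3 were those without a filter. The cause of each was not tested, apart from the smaller number tested at 100 counts. Among these results none reversed, and the other 47 alternatives moved no value beyond its limit, which for levels and ratios was the replicate SD. For levels and ratios, leaving out a library could not pass this limit, because the mean of 2 values then shifts by less than their SD. Those settings therefore do not speak to stability. Values inside the limits still differed. The count of 16 members at 1 TPM in both libraries was 19 with kallisto-style TPM, 13 with protein-coding transcripts and 20 without replicate 1. The class II chain sum of 12.7 TPM was 19.0 TPM with kallisto-style TPM and 8.62 TPM with protein-coding transcripts. There were 0 members lower in replicate 2 under every test run. Further log2 ratios were recomputed with settings chosen after seeing the data, and 8 values changed sign. With kallisto-style TPM H2-Aa over H2-Ab1 was -0.37 and H2-Eb1 over H2-Ab1 -0.55. With protein-coding transcripts only, by the RSEM-style and then the kallisto-style tables, H2-Eb1 over H2-Ab1 was -2.19 and -1.64, H2-Ea-ps over H2-Eb1 0.79 and 0.41, and classical class I over B2m -0.38 and -0.061. Another 6 values moved by more than the replicate SD and 7 did not. Depth limits members with few counts: those below 20 counts together, 21 of 51, were not tested between libraries.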

Other observations

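MHC class I-like genes encoded outside the H2 region were read from a list of 7, and 5 of them reached 1 TPM in both libraries. Fcgrt, the neonatal receptor that recycles immunoglobulin G and albumin, stood at 28.8 and 29.5 TPM, a level like that of H2-D1. Hfe, a regulator of iron uptake, stood at 13.9 and 16.2 TPM. Mr1, which presents vitamin B metabolites, stood at 3.53 and 3.34 TPM, and the lipid-presenting Cd1d1 at 3.43 and 3.72 TPM. Procr, the protein C receptor of endothelium, stood at 1.72 and 1.95 TPM. Azgp1 had 0 counts in both libraries, and Cd1d2 was at 0.15 and 0.17 TPM. Of the 5 tested by the exact binomial test, 0 passed 2-fold in either direction.

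The 18 genes of interferon signalling summed to 200.4 TPM in replicate 1 and 208.9 TPM in replicate 2, with a median log2 ratio of 0.054 over the 18 tested.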
